A study of Homo sapiens with 4 samples.

Results

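The genes described here encode the proteins that mark DNA replication origins, load and fire the replicative helicase and run the replication fork. They are 48 genes in 10 roles, found in the authors' deposited table of 57773 genes by an exact match of the gene name, and every one of the 48 was found. RNA was sequenced from KMS12PE and KMS11, established human lines of multiple myeloma, a cancer of antibody-secreting plasma cells. Each line was treated with 1 µM OSSL_325096, a compound known here by its code name, or with the solvent DMSO as control. That gave 4 libraries, 2 for each treatment, each library of a treatment being of a different line. The sources used here give neither the genotypes of the lines nor the length of exposure. There was 1 library for each line and treatment, so neither line had a replicate. The statistical model behind the p-values was not given, so the spread that they measure is not known. Between these libraries, differences between the lines and technical differences cannot be told apart.

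What was analysed is a comparison of OSSL_325096 with DMSO over both lines, made by the authors. It lists, gene by gene, a p-value, a log2 fold change and the RPKM averaged over whichever treatment had the higher average. RPKM scales read numbers by transcript length and library size, so it can be compared between genes. Single-library values were not analysed here, and how deeply each library was sequenced is unknown. A negative log2 fold change means a lower level with OSSL_325096; this direction was taken from the order of the treatments in the table's title. A gene was kept if that average reached 1 RPKM. This held for 11324 of the 23130 genes with a fold change, and all 48 replication genes were among them. As a check of the cell type, all 8 plasma cell markers were at or above 1 RPKM, from 6.26 RPKM for SLAMF7 to 180 RPKM for XBP1, and summed to 658 RPKM. Of 20 markers of B cells, T cells, myeloid cells and stroma, 0 reached 1 RPKM, with MS4A1, CD3D, FCGR3A, COL3A1 and DCN listed at 0.

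Before S phase, the origin recognition complex, CDC6 and CDT1 load the ring-shaped MCM2-7 helicase onto DNA in an inactive form, a step called licensing. The kinase CDC7 with its activator DBF4 then helps to turn the loaded rings into active helicases by joining them to CDC45 and the GINS complex, together called CMG. Polymerase alpha-primase starts each new strand with an RNA-DNA primer, the clamp loader RFC places the sliding clamp PCNA there, and polymerases delta and epsilon extend the strand, while RPA covers single-stranded DNA. Many of these genes are transcribed towards S phase under E2F transcription factors, which the RB protein family holds back earlier in the cycle.

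Most replication genes were at a lower level with OSSL_325096, by small amounts. Of the 48 genes, 39 had a log2 fold change below 0 (81.2%), against 49.0% of all 11324 genes. Their median log2 fold change was -0.25 (quartiles -0.42 and -0.08), and that of all genes was 0.01 (quartiles -0.21 and 0.22). The range ran from -0.97 for PRIM1, the catalytic primase subunit, to 0.21 for POLD2, a subunit of polymerase delta. The levels refer to RNA from whole cultures, in which fewer cells in S phase and less of these RNAs in each cell cannot be told apart.

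By size, 4 of the 48 genes were at least 1.5-fold lower (8.33%), against 4.95% of all genes, and 0 were at least 1.5-fold higher, against 4.95%. These 4 were PRIM1, CLSPN, POLD3 and RFC2, while PRIM2, RFC4 and RPA3 lay just short of the limit at 1.47-fold, 1.46-fold and 1.45-fold lower in the authors' deposited table. At a smaller limit of 0.32 on the log2 scale, 20 genes were lower (41.7%, against 15.2% of all genes) and 0 were higher (against 16.4%). The other 28 lay within that limit. In the values as deposited, the shift was thus one of many small differences on the lower side. The 0 on the higher side did not hold after a trend with expression, length and GC content was removed, when ORC2, ORC5 and DBF4 were past this limit at 0.35, 0.38 and 0.37. The 4 genes past 1.5-fold lower were then PRIM1, CLSPN, RFC2 and MCM5, at -0.84, -0.74, -0.71 and -0.67, with POLD3 just short at -0.58.

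No single gene was separated from the error of the comparison. With the Benjamini-Hochberg adjustment of the authors' p-values over all 11324 genes, 0 of the 48 genes had an adjusted p under 0.05, as had 0.00% of all genes, and 0 of the 48 had an unadjusted p under 0.05 in the authors' deposited table, which held 5 such genes among the 11324. An implied standard error (SE) was computed by dividing the size of the log2 fold change by the quantile of a normal distribution that matches the authors' p-value. It had a median of 1.00 over the 48 genes (0.84 to 1.54) and was larger than the log2 fold change in all 48. Over all 11324 genes its median was 1.10, against quartiles of -0.21 and 0.22 for the log2 fold change. A calibrated test would give an unadjusted p under 0.05 to a share of about 0.05 of unchanged genes, far more than 5 of 11324. The p-values and the implied SE were therefore conservative, for a reason that was not tested. At these errors a gene needed a median 3.87-fold difference, and at least 3.14-fold, to reach an unadjusted p of 0.05. Higher and lower therefore describe the authors' estimates, and none of them is a tested change.

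**Figure D1:**
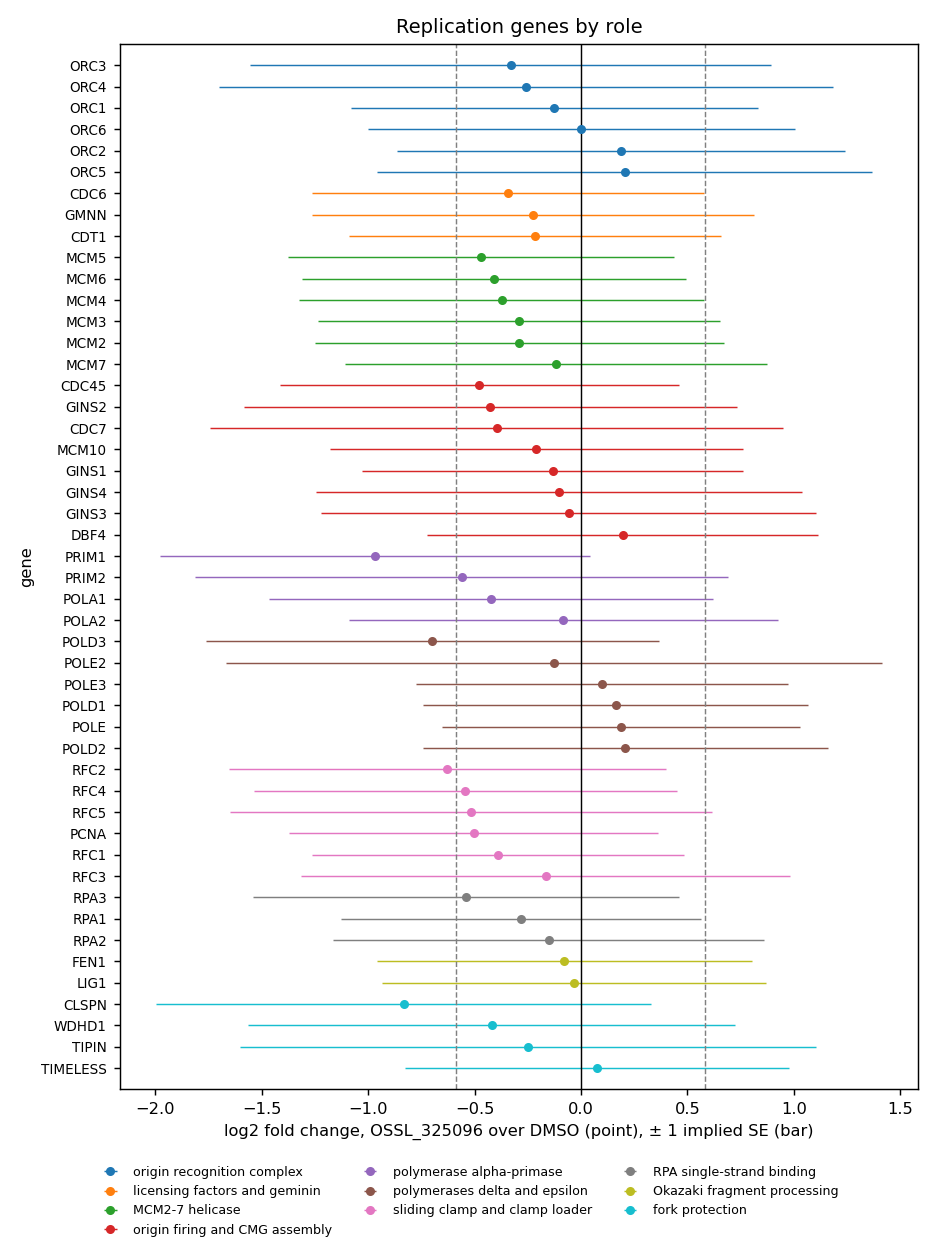
Log2 fold change with OSSL_325096 relative to DMSO (horizontal axis) for the 48 replication genes (vertical axis), ordered within each role from lowest to highest. Points are the authors' deposited values, bars are 1 implied SE on each side, and dashed lines mark 1.5-fold. PRIM1 is the lowest at -0.97 and POLD2 the highest at 0.21, and all 48 bars cross 0.

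In the origin recognition complex, the 6-protein machine that binds origins, the genes lay on both sides of 0, with 3 lower and 3 higher and a median of -0.06, which became 0.05 once a trend with expression, length and GC content was removed, with ORC4 moving to 0.03. ORC3 and ORC4 were the lowest, at -0.33 and -0.26 on the log2 scale in the authors' deposited table, and ORC1, the subunit that comes and goes with the cell cycle, was at -0.13. ORC6 was at 0.00 (-0.01 after centring on all genes), and ORC2 and ORC5 stood at 0.19 and 0.21 in the authors' deposited table. ORC4 was also the least expressed of all 48 genes, at 1.26 RPKM, and ORC1 the most expressed subunit, at 15.9 RPKM. The difference between the lowest and the highest subunit, 0.54, was smaller than their combined implied SE of 1.69. Here and below, a combined implied SE treats the errors of both genes as independent. The genes share the same libraries, so it is a rough scale and not the error of the difference.

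The 3 licensing factors were all lower. CDC6, the ATPase that brings the helicase to the origin complex, was at -0.34 on the log2 scale in the authors' deposited table. CDT1, which escorts the helicase, was at -0.22, and GMNN, whose product geminin blocks CDT1 after licensing, was at -0.22 in the authors' deposited table. With the same trend removed, CDC6 was at -0.26, CDT1 at -0.49 and GMNN at -0.09, so the nearly equal values of CDT1 and its inhibitor did not hold there. In level CDT1 stood highest at 51.0 RPKM, CDC6 was at 19.8 RPKM and GMNN at 14.9 RPKM.

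All 6 genes of the MCM2-7 ring were lower, with a median of -0.33. MCM5 was the lowest at -0.47 (implied SE 0.91), followed by MCM6 at -0.41 and MCM4 at -0.37 on the log2 scale in the authors' deposited table. MCM2 and MCM3 were both at -0.29 there, and MCM7 was at -0.12 (implied SE 0.99). The ring holds 1 copy of each protein, and the spread of its genes from lowest to highest, 0.35, was far smaller than the combined implied SE of 1.34. Their levels were among the highest of the 48 genes but uneven. MCM7 (chromosome 7, 99690351 to 99699563, minus strand, hg19) was the most expressed replication gene at 148 RPKM, which was 4.50 times the level of MCM5 at 32.8 RPKM, while MCM2, MCM3, MCM6 and MCM4 had 79.6, 76.1, 51.9 and 34.3 RPKM.

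Of the 8 genes of origin firing and CMG assembly, 7 were lower, with a median of -0.17. CDC45, the helicase cofactor, was at -0.48 (implied SE 0.94) in the authors' deposited table. The other CMG component, the 4-protein GINS complex, was uneven: GINS2 was at -0.43 and GINS1, GINS4 and GINS3 stood at -0.13, -0.11 and -0.06 in the authors' deposited table. MCM10, which helps to activate the assembled helicase, was at -0.21. The kinase gene CDC7 and the gene of its activator DBF4 lay on opposite sides of 0, at -0.40 (implied SE 1.35) and 0.20 (implied SE 0.92) in the authors' deposited table. DBF4 was the only gene of this role above 0, and at 10.2 RPKM it stood above its kinase partner at 4.06 RPKM.

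The polymerase genes lay on different sides of 0 by kind. All 4 genes of polymerase alpha-primase were lower, with a median of -0.49 (-0.31 with the trend in expression, length and GC content removed), while 4 of the 6 genes of polymerases delta and epsilon were higher, with a median of 0.13 (0.03 with the trend removed, when POLD1 and POLD2 moved below 0 and POLE2 above it). PRIM1 (chromosome 12, 57125380 to 57146157, minus strand, hg19) was 1.96-fold lower, a log2 fold change of -0.97 with an implied SE of 1.01 and an unadjusted p of 0.338 in the authors' deposited table. PRIM2, the large primase subunit, was at -0.56, POLA1, the catalytic polymerase subunit, at -0.42, and POLA2, the regulatory subunit, at -0.08 in the authors' deposited table. The primase pair was therefore lower than the polymerase pair, but PRIM1 and POLA2 were 0.88 apart with a combined implied SE of 1.43.

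Among the polymerases that extend the strands, the catalytic genes POLD1 and POLE were at 0.16 and 0.19 on the log2 scale in the authors' deposited table, and POLD2 was at 0.21. The accessory subunits POLE3 and POLE2 were at 0.10 and -0.13 there. POLD3, an accessory subunit of polymerase delta (chromosome 11, 74204896 to 74380162, plus strand, hg19), was lower than its partners at -0.70 (1.62-fold lower, implied SE 1.06, unadjusted p of 0.511 in the authors' deposited table). The difference of 0.91 between POLD3 and POLD2, subunits of the same enzyme, was still within the combined implied SE of 1.43. Levels within this role spread 31.0-fold, from 2.75 RPKM for POLE2 to 85.2 RPKM for POLD2 (chromosome 7, 44154286 to 44163957, minus strand, hg19).

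The clamp and its loader had the lowest median of the 10 roles, -0.51, with all 6 genes lower. RFC2, a small loader subunit (chromosome 7, 73645829 to 73668774, minus strand, hg19), was at -0.63 on the log2 scale (1.55-fold lower, implied SE 1.03, unadjusted p of 0.541 in the authors' deposited table). RFC4 and RFC5 were at -0.54 and -0.52, RFC1, the large subunit, at -0.39 and RFC3 at -0.17 in the authors' deposited table. PCNA, the clamp itself (chromosome 20, 5095599 to 5107272, minus strand, hg19), was 1.42-fold lower there (log2 -0.50, implied SE 0.87). It was the second most expressed replication gene at 127 RPKM, and the loader genes lay between 8.26 RPKM for RFC5 and 30.3 RPKM for RFC2.

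The remaining fork genes were mixed in size. The 3 genes of RPA were lower, RPA3 at -0.54, RPA1 at -0.28 and RPA2 at -0.15 on the log2 scale in the authors' deposited table. Those that finish Okazaki fragments, the short pieces of the lagging strand, were close to 0 as deposited: the flap nuclease gene FEN1 was at -0.08 and the ligase gene LIG1 at -0.03 in the authors' deposited table. With the trend removed they were lower, at -0.15 and -0.24. Of the 4 fork protection genes, 3 were lower, with a median of -0.33 that became -0.18 with the trend removed. CLSPN (chromosome 1, 36185819 to 36235568, minus strand, hg19), whose product claspin relays the replication checkpoint signal at the fork, was 1.78-fold lower, at -0.83 with an implied SE of 1.16 and an unadjusted p of 0.474 in the authors' deposited table. WDHD1, which links the helicase to polymerase alpha, was at -0.42. The partners TIPIN and TIMELESS, which bind each other and travel with the fork, stood at -0.25 and 0.08 in the authors' deposited table, and at 5.09 and 33.1 RPKM.

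**Figure D2:**
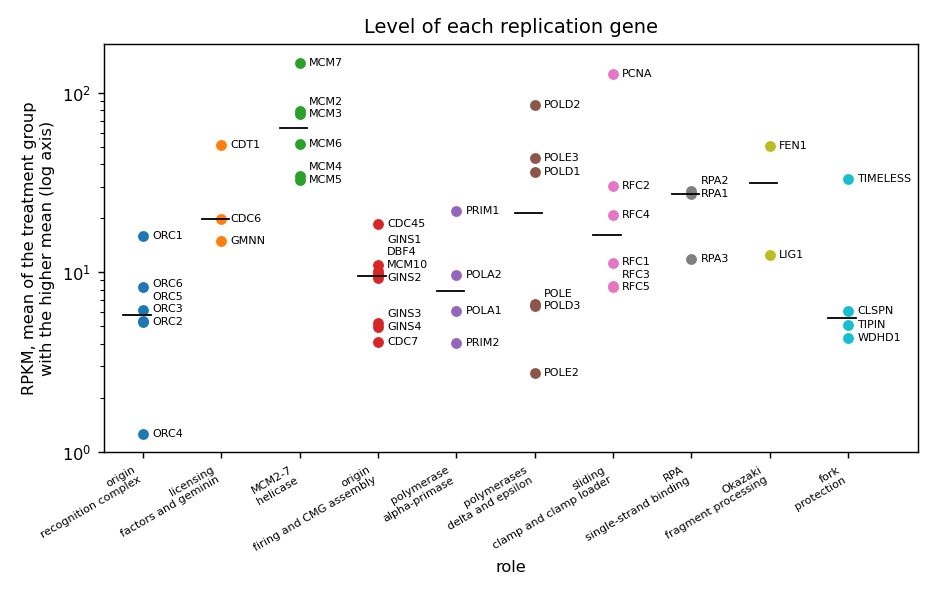
RPKM of each replication gene (vertical log axis), the authors' mean of the treatment with the higher mean, by role (horizontal axis); labels are stacked upwards where points crowd, and horizontal bars are the medians of the roles. MCM7 at 148 RPKM and PCNA at 127 RPKM are the highest and ORC4 at 1.26 RPKM the lowest, a 117-fold range.

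Across the 48 genes the log2 fold change showed little relation to the level. The Spearman correlation with RPKM was 0.05 and Pearson's r 0.04 over these 48 genes, which share the same 4 libraries and are not independent replicates. The lowest genes spanned the range of levels, from CLSPN at 6.05 RPKM through PRIM1 at 22.0 RPKM to PCNA at 127 RPKM.

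Promoter sequences were then set beside the fold changes, since E2F factors are the textbook regulators of these genes. RefSeq promoters of 300 bases (250 before to 50 after the transcription start, build GRCh38.p14) were found for 42 of the 48 genes, 55 promoters in all. No entry was found for MCM4, MCM5, GINS4, POLD3, RPA2 and RPA3. The promoters were searched on both strands for an E2F word, that is TTCCCGC or TTCGCGC or TTGCCGC or TTGGCGC. These can overlap one another and, in TTGGCGC, the reverse of the CCAAT word. The stretches of 60 bases below are shown because they hold the words in genes of different roles, with the words in capitals, read 5′ to 3′ on the gene's strand. They lie at chr12:56752324-56752383 (minus strand) for PRIM1, chrX:24693771-24693830 (plus) for POLA1, chr3:186806483-186806542 (minus) for RFC4, chr20:5126649-5126708 (minus) for PCNA, chr2:135876497-135876556 (minus) for MCM6, chr16:88803729-88803788 (plus) for CDT1 and chr15:66356715-66356774 (minus) for TIPIN. POLD2 at chr7:44123549-44123608 (minus) and DBF4 at chr7:87876433-87876492 (plus) are shown as genes above 0 whose promoters hold no such word.
PRIM1: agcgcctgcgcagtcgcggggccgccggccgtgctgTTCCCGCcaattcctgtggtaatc
POLA1: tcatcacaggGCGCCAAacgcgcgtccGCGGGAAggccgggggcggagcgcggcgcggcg
RFC4: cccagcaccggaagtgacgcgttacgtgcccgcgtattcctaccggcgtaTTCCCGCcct
PCNA: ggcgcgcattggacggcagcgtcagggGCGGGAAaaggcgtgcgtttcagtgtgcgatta
MCM6: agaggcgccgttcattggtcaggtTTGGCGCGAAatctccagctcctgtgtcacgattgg
CDT1: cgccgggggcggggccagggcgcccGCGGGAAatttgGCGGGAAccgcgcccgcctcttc
TIPIN: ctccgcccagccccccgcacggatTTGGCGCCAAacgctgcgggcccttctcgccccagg
POLD2: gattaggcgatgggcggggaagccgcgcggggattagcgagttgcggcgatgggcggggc
DBF4: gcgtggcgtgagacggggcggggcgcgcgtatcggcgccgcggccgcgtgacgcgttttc

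In the PRIM1 stretch a single word, TTCCCGC, shares its last base with a CCAAT word, and in the MCM6 stretch 2 words on opposite strands overlap in TTGGCGCGAA. The CDT1 stretch holds 2 copies of the reverse word GCGGGAA. The TIPIN stretch holds a palindrome, TTGGCGCCAA, made of the same word on both strands. TIPIN and PCNA each have another promoter, at chr15:66386668-66386967 and chr20:5119909-5120208, that holds no E2F word. Which promoter was in use in these cells is unknown. The POLD2 and DBF4 stretches hold the GC box GGGCGG, which 76.4% of the 55 promoters had. A match to such a short word is a description of the sequence and not of a bound site.

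The E2F words were frequent in these promoters. They were in 33 of the 55 (60.0%), against 20.1% of the 11589 promoters of genes of at least 1 RPKM and 13.0% of all 35116 RefSeq promoters of the same length. The CCAAT word was in 50.9%, against 35.5% of promoters of genes of at least 1 RPKM. It was in 64.0%, 43.8% and 78.6% of the promoters of these lists in the same order, so it was not particular to replication genes. The word TTTGAA, the core of the CHR element known from mitotic genes, was in 2 of the 55 (3.64%), those being in DBF4 and POLE3, against 9.93% of promoters of genes of at least 1 RPKM and 46.4% of the promoters of a list of mitosis genes. Both genes with this word were above 0, but 2 genes are too few to read a relation from. Over all genes of at least 1 RPKM, 53.94% of the 1040 with this word were lower, against 47.44% of the 6967 without.

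Replication genes with and without an E2F word differed in how often they were lower. Of the 31 genes with a word, 28 were lower (90.32%), with a median log2 fold change of -0.29. Of the 11 without, 5 were lower (45.45%), with a median of 0.00. The genes with a word that were not lower were POLE, POLE3 and TIMELESS. The genes without one were ORC2, ORC4, ORC5, ORC6, MCM10, CDC45, DBF4, PRIM2, POLD1, POLD2 and FEN1, and among them the authors' deposited table had PRIM2 at -0.56 and CDC45 at -0.48. The word went with little difference in level elsewhere: over all genes of at least 1 RPKM, 50.9% of the 2104 with a word were lower (median -0.01), and 47.35% of the 5903 without (median 0.02). With the same trend removed, 28 of the 31 and 6 of the 11 were below 0. The split depends on the word chosen. A looser word that also allows G as its last base was added after the values were seen. It was in 35 genes, CDC45 among them, and 31 of the 35 were lower (median -0.29). Of the 7 without it, 2 were lower (median 0.16). The 6 genes without a promoter entry are in neither group, and all of them were lower, from -0.11 for GINS4 to -0.70 for POLD3. The contrast could therefore change if their promoters were known. This split is given as a description and was not tested.

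**Figure D3:**
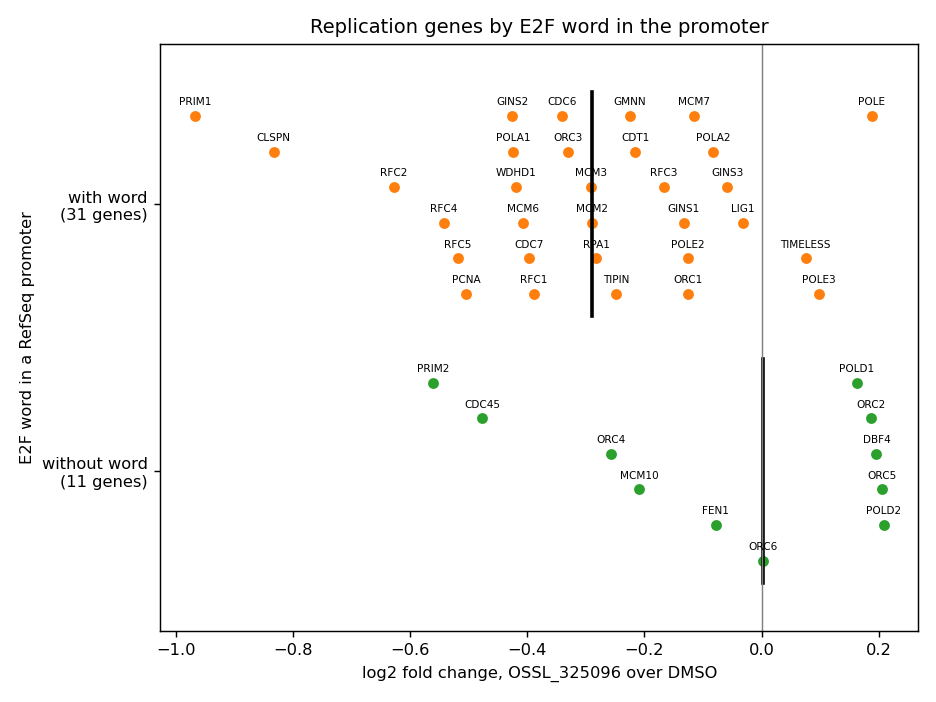
Log2 fold change with OSSL_325096 relative to DMSO (horizontal axis) for the 42 replication genes with a RefSeq promoter, split by whether a promoter holds an E2F word (vertical axis; the height within a row has no meaning). Thick bars are medians, -0.29 for the 31 genes with a word and 0.00 for the 11 without, and 28 of the 31 genes with a word lie below 0.

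Several replication genes share their start region with a gene read in the other direction. In 17 pairs the neighbour was at or above 1 RPKM and the starts lay at most 1000 bases apart. The replication gene was the lower of the pair in 12 of the 17. The median was -0.28 for the replication genes, 14 of them below 0, and -0.07 for their neighbours, 10 of them below 0. Of all 48 replication genes 81.2% were below 0, and of all 11324 genes 49.0%. The replication genes in these pairs were thus lower about as often as the whole set, and nothing particular to shared start regions was tested. The widest gap was that of PRIM1 at -0.97 and HSD17B6 at 0.21 (2.85 RPKM, implied SE 1.67) in the authors' deposited table. POLD3 at -0.70 faced LIPT2 at 0.25 (1.91 RPKM), and CDC45 at -0.48 faced UFD1L at 0.17 (5.99 RPKM) in the authors' deposited table. Other pairs were close: the authors' deposited table had PCNA at -0.50 with CDS2 at -0.46, MCM4 at -0.37 with PRKDC at -0.26, and TIPIN at -0.25 with MAP2K1 at -0.23. DBF4 was the reverse case, at 0.20 beside SLC25A40 at -0.34 in the authors' deposited table. The differences named here between neighbours were smaller than the implied SEs of each pair, combined as if independent.

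Gene overlap limits some of these values, because the sources used here do not state whether reads were counted by strand. A total of 11 replication genes overlap another gene of at least 1 RPKM, in 11 pairs on opposite strands and 2 on the same strand. Most overlaps are short. The longest is that of RPA3 with its antisense gene RPA3-AS1 (77897 bases; 11.8 and 3.92 RPKM), so the RPA3 value cannot be separated from antisense reads. PRIM1 shares 33 bases on its own strand with NACA, which was at 84.4 RPKM and -0.19 on the log2 scale in the authors' deposited table. FEN1 (chromosome 11, 61560109 to 61564716, hg19) shares 4265 bases, most of its span, on its own strand with FADS2. FADS2 was at 14.2 RPKM and 0.36 on the log2 scale there, so the FEN1 value may hold FADS2 reads even if reads were counted by strand. Of the 48 genes, 6 have pseudogenes named after them in the table, 10 in all, and 0 of these had an RPKM above 0. Without the 11 overlapping genes, a choice made after seeing the data, 29 of 37 replication genes were lower with a median of -0.22.

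GC content moved with the fold changes of all genes, so the replication genes were compared with genes of like GC content. Over 11104 genes the Spearman correlation of log2 fold change with transcript GC content was 0.47 (Pearson 0.38), and in 5 equal bins of GC content the median was -0.17, -0.12, -0.00, 0.13 and 0.23 from lowest to highest. Within the 48 genes the correlation was 0.22 (Pearson 0.26). Of the 48 genes, 13, 14, 12, 7 and 2 lay in these bins, so they were drawn more from the GC-poor side, where lower values were common. Their own medians by bin were -0.26, -0.37, -0.14, -0.12 and -0.03, each below that of all genes in the bin, and 38 of the 48 lay below the median of their bin. After removal of a trend with expression, length and GC content, 40 of the 48 were below 0 and their median was -0.23. CDT1 at 65.3% GC and MCM5 at 58.6% GC were below 0 in bins where most genes were above it. Of the genes above 0, POLD1 at 65.0% GC, POLD2 at 59.2% GC and POLE at 55.9% GC were in the bins of high GC content. After the trend was removed, POLD1 and POLD2 were below 0, at -0.15 and -0.00, as was TIMELESS at -0.02. POLE stayed above 0 at 0.06, as did ORC6 at 0.08 and POLE3 at 0.13. ORC2, ORC5 and DBF4, of low GC content, were at 0.35, 0.38 and 0.37 after removal.

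**Figure D4:**
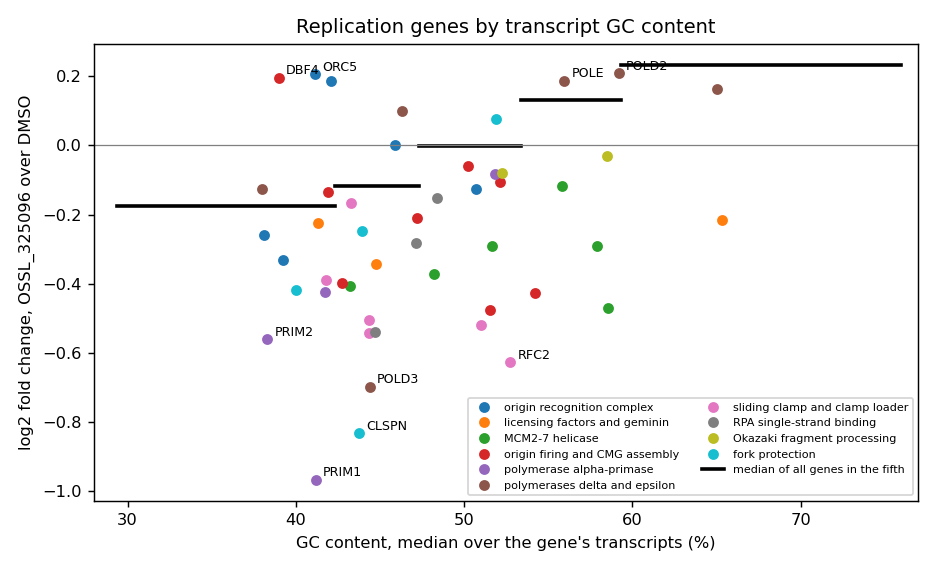
Log2 fold change of OSSL_325096 over DMSO (vertical axis) against transcript GC content in percent (horizontal axis) for the 48 replication genes, coloured by role. Black bars are the medians of all genes in each of 5 equal bins of GC content, from -0.17 to 0.23, and 38 of the 48 points lie below the bar of their bin.

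Other genes of S phase, listed by function, were set beside these. The counts of lower genes stand against 49.0% of all 11324 genes. Of 24 further replisome and origin genes of at least 1 RPKM, 13 were lower with a median of -0.03, so this wider set lay close to all genes. It held DBF4B, a second activator of CDC7, at 0.59, TOPBP1, which helps origins to fire, at -0.54 and CHTF18, of an alternative clamp loader, at 0.52 in the authors' deposited table. Genes that supply deoxynucleotides were lower in 10 of 13 with a median of -0.29, with the ribonucleotide reductase gene RRM2 at -0.54 and the nucleotide-cleaving enzyme gene DCTPP1 at 0.65 in the authors' deposited table. Genes that assemble chromatin on new DNA were lower in 11 of 13 with a median of -0.16, led in size by MMS22L at -0.60, TONSL at 0.51 and CHAF1B, of the chromatin assembly factor CAF-1, at -0.47 in the authors' deposited table. Recombination and replication checkpoint genes were lower in 14 of 19 with a median of -0.17. RAD51AP1, ATRIP and PALB2 had the largest differences there, at -0.76, 0.58 and -0.47 in the authors' deposited table.

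Upstream of the replication genes, 14 of 19 genes of the RB and E2F network were lower (against 49.0% of all genes), with a median of -0.11. Of the 19, 4 were at least 1.5-fold lower, against 4.95% of all genes. The atypical repressors E2F7 and E2F8 were at -1.07 (2.14 RPKM, implied SE 1.43) and -0.66, and LIN52, of the DREAM and MuvB complexes, at -0.65 in the authors' deposited table. The activator gene E2F1 was at -0.11 and 86.0 RPKM there. Of 15 genes of S phase cyclins and of CDT1 turnover, 9 were lower, and 5 of these passed 1.5-fold, against 4.95% of all genes. The median of the 15 was -0.19. The cyclin E genes CCNE2 and CCNE1 were at -1.19 and -1.03, below every replication gene, and SKP2, of the ubiquitin ligase that removes p27, was at -0.83 in the authors' deposited table. CCNA2, the cyclin of S phase and G2, was on the other side at 0.52 there; it was named after its value was seen.

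Mitosis genes lay on the other side of 0. Of 22, 17 were higher, against 5779 of all 11324 genes, and 7 were past 1.5-fold higher, against 4.95% of all genes. The median of the mitosis genes was 0.42, against -0.25 for the 48 replication genes. CDC20, which activates the anaphase-promoting complex, CCNB1, of cyclin B, and PLK1, a mitotic kinase, stood at 1.34, 1.20 and 0.97 in the authors' deposited table. Only 9 replication genes were above 0, the highest at 0.21. The 2 groups come from the same libraries, and their difference was not tested.

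**Figure D5:**
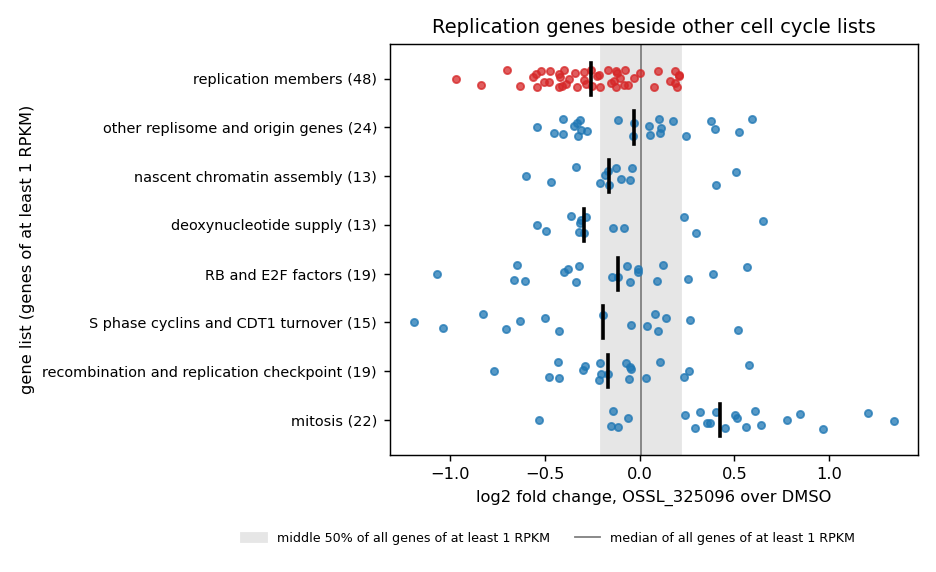
Log2 fold change with OSSL_325096 relative to DMSO (horizontal axis) for the 48 replication genes (red) and 7 other cell cycle lists (blue); each point is a gene of at least 1 RPKM and thick bars are medians. The grey band is the middle 50% of all genes, from -0.21 to 0.22. The replication genes have a median of -0.25 and the mitosis genes 0.42.

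Plasma cell markers were read in the same way, beside the 49.0% of all genes that were lower. Of the 8 markers, 7 were lower, with CD38 at -0.73, IRF4 at -0.67, TNFRSF17 at -0.66 and PRDM1 at -0.36 in the authors' deposited table, and SDC1 was higher at 0.60 there. SLAMF7, XBP1 and POU2AF1 lay near 0, at -0.08, -0.02 and -0.01 in the authors' deposited table. Their part in the values of the replication genes was not tested.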

How the data were processed

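RNA was measured in 4 libraries of KMS12PE and KMS11 cells. Per the labels' protocols, oligo(dT) beads were used to capture mRNA and random hexamers to prime it. Biomedical Genomics Workbench 5 served for expression and comparison, with hg19 as the genome, per the series' design text. Annotation, depth, the statistical model and how and on which strand reads were counted were not given in the sources used here. A single table of their comparison was deposited by the authors, with 0 columns of single libraries used here. Its RPKM column is, per the file headers, the higher of the 2 group means. The authors also deposited a log2 fold change, the same ratio as a signed score, and p-values (unadjusted, false discovery rate and Bonferroni); the false discovery rate was the same value, 0.999995158, for every gene with one.

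From these values, genes of at least 1 RPKM were kept, p-values were adjusted again over them by Benjamini-Hochberg, and an implied standard error was computed. It holds exactly for a normal test on both sides of 0, which the file headers do not state. Planned fits that leave out a library, block by line or test each line need single-library values and were not run. Each gene's GC content and length were taken as the median of its GENCODE 44 transcripts mapped to GRCh37, found for 98.1% of the genes kept and all 48 replication genes; their trend with expression (terms up to degree 3) explained 15.8% of the variance. Coordinates are on hg19 as deposited, and promoters are from RefSeq on GRCh38.p14, matched by symbol. The calculations were tested on simulated data. Python 3.11.15, pandas 2.3.3, numpy 2.4.6 and scipy 1.17.1 were used.

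The 48 genes, the 12 other lists (155 genes, of which 152 were matched by name and 3 by identifier) and the tests were chosen with earlier results of these data known. All 48 genes are named, as are, from each other S phase, E2F and mitosis list, the 3 with the largest absolute log2 fold change, and all plasma cell markers; the values of some list members are not reported here.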

Additional observations from a re-analysis of the deposited data

How the results depend on the processing

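The count of replication genes at least 1.5-fold lower, 4 of 48, moved to 20 with a limit of 0.32 on the log2 scale and to 0 with a limit of 2-fold. The count of lower genes was 39 with no minimum on RPKM and 33 with a minimum of 5 RPKM. That minimum leaves out ORC4, GINS4, CDC7, PRIM2, POLE2 and WDHD1, all of them lower, so the 33 are of fewer than 48 genes. The count was 40 after centring on the median of all genes, and 40 after removing the trend with expression, length and GC content. The median log2 fold change lay between -0.26 and -0.23 in these settings, and was -0.22 without the genes that overlap another. The count at least 1.5-fold lower was 4 in each of these first 4 settings, but removing the trend put MCM5 in the place of POLD3, and it was 3 without the overlapping genes, a setting added after seeing the data. The count with an adjusted p under 0.05 was 0 with no minimum, with a minimum of 5 RPKM and with the false discovery rate as the authors deposited it. Centring changed the sign of ORC6, and removing the trend changed that of ORC4, POLD1, POLD2, POLE2 and TIMELESS, with shifts of up to 0.31. No paired analysis was possible because the data analysed hold no values of single libraries, and leaving out each library was not run for the same reason. The depth behind each value is unknown, the lines cannot be told apart from replicates, and differences under 3.14-fold could not give an unadjusted p of 0.05 for any of the 48 genes in the authors' comparison.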
